A study of Caenorhabditis elegans with 4 samples.

Results

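The HDA-1 peaks of Caenorhabditis elegans chromosome IV that lie outside its piRNA domains were described here. A peak belonged to this set when its midpoint lay on IV outside both 4500000 to 7000000 and 13500000 to 17200000 bp of the WS220 build. That rule used position alone and no peak value. It took 1561 of the 14199 peaks of the whole-series list, or 72.8% of the peaks on IV, together with 1318 of 11762 peaks in replicate 1 and 1107 of 9901 in replicate 2. The chromosome was read in 3 stretches: a left end before the first domain, a middle stretch between the domains, and a right end after the second. The libraries came from wild type N2 animals, the reference laboratory strain, taken at the L3 larval stage from cultures of both sexes kept at 20 °C. There were 2 ChIP libraries made with a polyclonal rabbit antibody to HDA-1 (SDQ2354), and 2 input DNA libraries, which were not analysed here. Whole animals were ground, so a peak pools all tissues, the germ line among them, and cannot be assigned to a cell type. Nothing in the labels ties the replicates to separate cultures, and the lists hold positions and scores without read counts, so the depth behind a peak is unknown.

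HDA-1 belongs to the class I histone deacetylases. It takes acetyl groups off histone tails and acts inside corepressor complexes such as NuRD and SIN3, which repress transcription. Most piRNAs of this nematode, the small 21U-RNAs that guide the Argonaute PRG-1 against transposons in the germ line, are transcribed from a pair of broad clusters on chromosome IV. The stretches outside those clusters hold ordinary genes, with a gene-rich centre and a left arm richer in repeats. Genes at the peaks below were not analysed here, and peaks are therefore named by position.

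Taken as a whole, the span of IV outside the piRNA domains held HDA-1 peaks at a higher density than the domains, in each replicate. The whole-series list held 138 peaks per Mb outside (exact 95% counting interval 131 to 145) and 94.2 inside (86.7 to 102). Replicate 1 held 117 against 75.5, and replicate 2 held 98.0 against 71.9. The ratio of outside to inside was 1.47 in the whole-series list, 1.55 in replicate 1 and 1.36 in replicate 2. Exact two-sided binomial tests against the share of the span gave adjusted p = 2.17e-15, 4.51e-16 and 4.96e-08 in that order, adjusted by Benjamini-Hochberg over 12 tests. These tests, like all below, take each peak as a unit although neighbouring peaks are clustered, so their p-values are too small and say nothing of the spread between cultures. The contrast was also present in bases: peaks covered 4.75% of the outside span and 3.13% of the domains.

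Against the other autosomes, no difference in the density of the stretches outside the domains passed the test. Chromosomes I, II, III and V together held 145 peaks per Mb in the whole-series list, 118 in replicate 1 and 104 in replicate 2. The log2 ratio of IV outside the domains to these was -0.06 (exact binomial test, adjusted p = 0.160), -0.02 (adjusted p = 0.678) and -0.09 (adjusted p = 0.116) in the same order. None of the 3 passed. The domains differed between themselves: the left one held 111 whole-series peaks per Mb (92.4 in replicate 1 and 84.0 in replicate 2) and the right one 82.7 (64.1 and 63.8).

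Within the set, the left end was the densest stretch of the whole-series list. It held 712 peaks in 4.5 Mb, or 158 per Mb (147 to 170). The middle stretch held 817 peaks in 6.5 Mb, or 126 per Mb (117 to 135). The right end is a short stretch of 0.294 Mb with 32 peaks, or 109 per Mb, and its interval of 74.5 to 154 covers the values of both others.

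**Figure D1:**
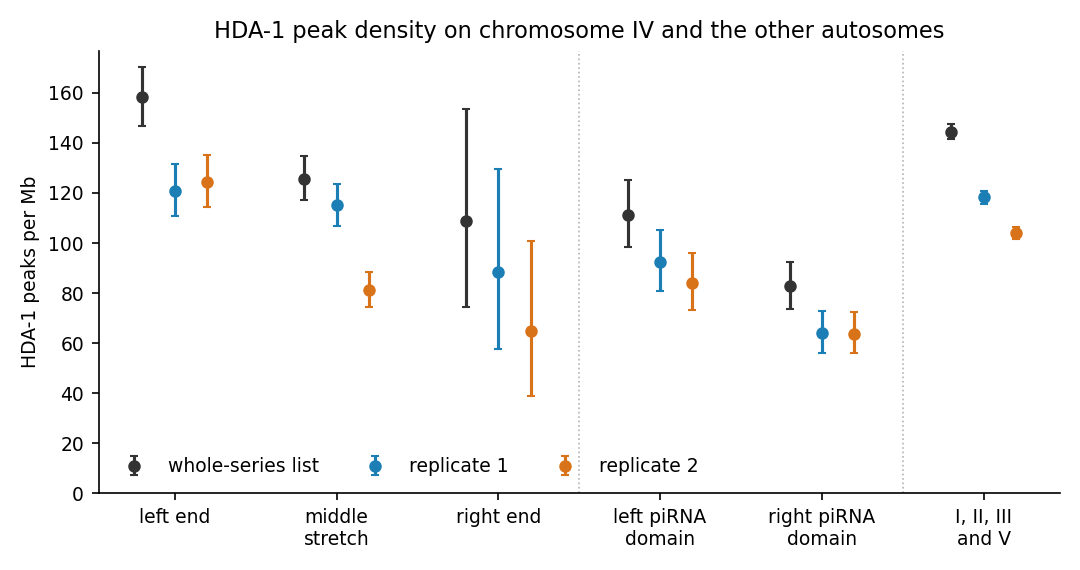
HDA-1 peaks per Mb (vertical axis) in the 3 stretches of IV outside the piRNA domains, in the 2 domains and on the other autosomes, for the whole-series list and each replicate. Bars are exact 95% counting intervals; replicate 1 holds similar densities in the left end and the middle stretch (121 and 115), whereas replicate 2 falls from 124 to 81.2.

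The excess in the left end rested on replicate 2. In replicate 1 the left end held 544 peaks (121 per Mb) and the middle stretch 748 (115 per Mb), a ratio of 1.05 (exact binomial test, adjusted p = 0.415). In replicate 2 the left end held 560 peaks (124 per Mb) and the middle stretch 528 (81.2 per Mb), a ratio of 1.53 (exact binomial test, adjusted p = 8e-12). The whole-series list stood between them at 1.26 (exact binomial test, adjusted p = 1.7e-05). The replicates therefore held nearly equal numbers in the left end and parted in the middle stretch. The same fraction of each other autosome also held fewer peaks in replicate 2, as given below. With 26 and 19 peaks, the right end had 88.5 peaks per Mb in replicate 1 and 64.7 in replicate 2, with overlapping intervals. In replicate 2 both the middle stretch and the right end thus lay below the 84.0 peaks per Mb of the left domain, and the left end alone lay above it. In replicate 1 the right end lay below the 92.4 of that domain.

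In bins of 500 kb, replicate 2 had fewer peaks than replicate 1 in 13 of 13 bins of the middle stretch. In the left end it had more in 7 of 9 bins and fewer in the other two, which adjoin from 2500001 to 3500000. The bins of the middle stretch held 49 to 71 peaks in replicate 1 (median 56) and 30 to 56 in replicate 2 (median 40). Those of the left end held 38 to 94 (median 58) and 45 to 95 (median 60). These are raw counts, and replicate 2 is the shorter list, with 9901 peaks against 11762. As a share of its list, the left end made up 4.63% of replicate 1 and 5.66% of replicate 2. The middle stretch made up 6.36 and 5.33%. No bins of other chromosomes were set beside these counts.

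The densest bin of all these lay just before the first domain. From 4000001 to 4500000, replicate 1 placed 94 peaks, replicate 2 placed 95 and the whole-series list 124. The next densest, from 3500001 to 4000000, held 87 whole-series peaks, and the sparsest of the left end, from 500001 to 1000000, held 50. On the other side of that domain the first bin of the middle stretch held 61, a count near the median of 63 for that stretch. Without the densest bin the left end still exceeded the middle stretch in the whole-series list, with a log2 ratio of 0.23 against 0.33 (exact binomial test, unadjusted p = 0.00392). That value covers the whole-series list only. In replicate 1 the bin held 94 of the 544 left-end peaks, and the ratio was only 1.05 with the bin included. In the middle stretch the whole-series counts ran from 51 (10500001 to 11000000) to 77 (11000001 to 11500000), in bins that touch.

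**Figure D2:**
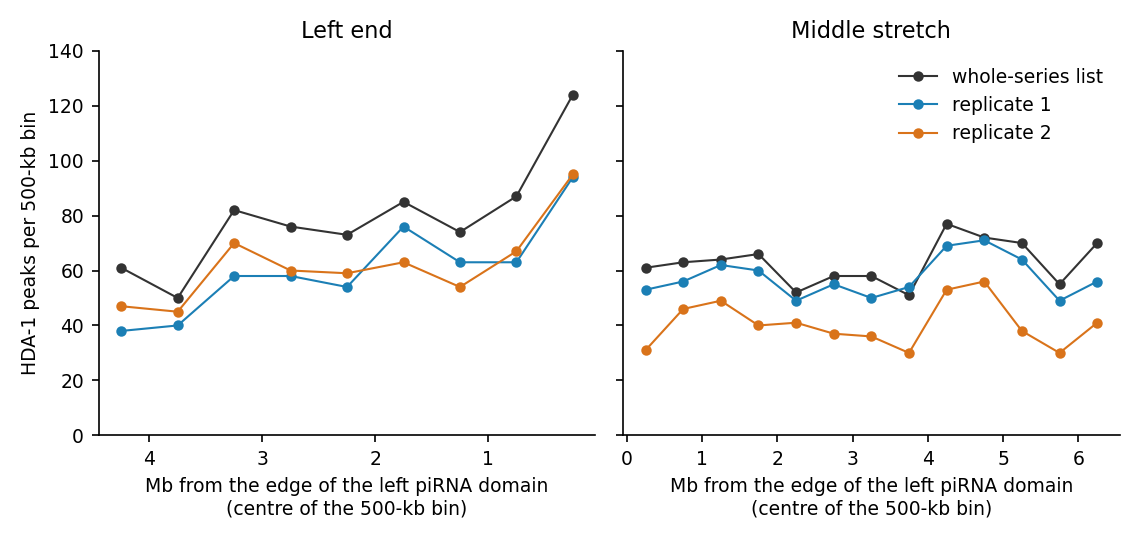
HDA-1 peaks per 500-kb bin (vertical axis) against the distance of the bin centre from the edge of the left piRNA domain in Mb, for the left end and the middle stretch. The left-end bin nearest the domain is the highest, with 124 whole-series peaks, and in the middle stretch replicate 2 lies below replicate 1 in all 13 bins.

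The same fractions of the other autosomes were set beside these values as a description. The left end of IV is its first 25.7%, and the middle stretch runs from 40.0 to 77.2% of its length. On IV the log2 ratio of left to middle density was 0.07 in replicate 1 and 0.62 in replicate 2. On I it was -0.25 and 0.10, on II -1.02 and -0.28, on III -0.86 and -0.01, and on V -0.72 and -0.15. The value of IV was thus the highest of the 5 autosomes in each replicate, while the step from replicate 1 to replicate 2 had the same sign on all 5. Peaks of the middle fraction in replicates 1 and 2 numbered 845 and 639 on I, 918 and 676 on II, 842 and 606 on III, and 881 and 638 on V. Those of the left fraction numbered 491 and 474, 313 and 386, 322 and 418, and 371 and 397. The split between the replicates was thus not particular to IV. No test of IV against the others was run.

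No difference between the stretches in the share of peaks found in both replicates passed the test, but their other peaks came in different proportions from the replicates. Over the whole-series list 41.9% of peaks overlapped a peak in both replicates by at least 1 bp, 28.9% overlapped replicate 1 only, 18% replicate 2 only and 11.2% neither. Of the 1561 peaks outside the domains, 684 (43.8%, exact interval 41.3 to 46.3%) were found in both, 436 (27.9%) in replicate 1 only, 285 (18.3%) in replicate 2 only and 156 (9.99%) in neither, shares near those of the whole list. The share found in both was 42.3% in the left end, 45.2% in the middle stretch and 43.8% in the right end. The left end minus the middle stretch came to -2.89 percentage points (Fisher's exact test, adjusted p = 0.340). The domains had 46.4%, and the outside share minus theirs came to -2.59 points (Fisher's exact test, adjusted p = 0.340). Neither difference passed. The first depended on the counting: with peaks closer than 1 kb merged it was -12.4 points (Fisher's exact test, unadjusted p = 0.00012), and with midpoints within 100 bp it was 1.64 points (unadjusted exact p = 0.509). The outside share itself was 21.1% with the 5000 best-scoring peaks of each replicate. Only the replicate lists were cut there and all 1561 peaks were kept, so this share falls by construction.

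The peaks found in 1 replicate were divided quite differently. In the left end 192 whole-series peaks were found in replicate 2 only and 152 in replicate 1 only. Between the domains 91 were found in replicate 2 only and 272 in replicate 1 only. The odds of a single-replicate peak coming from replicate 2 were 1.26 in the left end and 0.33 in the middle stretch, an odds ratio of 3.78 (Fisher's exact test, adjusted p = 4.51e-16). This test compares the 2 libraries and not conditions, since each class comes from 1 library. It draws on the same peaks as the density contrast between the replicates and in part restates it. Over the whole series 2549 peaks were found in replicate 2 only and 4109 in replicate 1 only. In the right end 12 peaks were from replicate 1 only and 2 from replicate 2 only. The domains lay between, with 69 and 48 in the left domain and 69 and 70 in the right one. Expressed per Mb, peaks found in both stood at 66.9 in the left end and 56.8 in the middle stretch, those of replicate 1 only at 33.8 and 41.8, and those of replicate 2 only at 42.7 and 14.0.

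**Figure D3:**
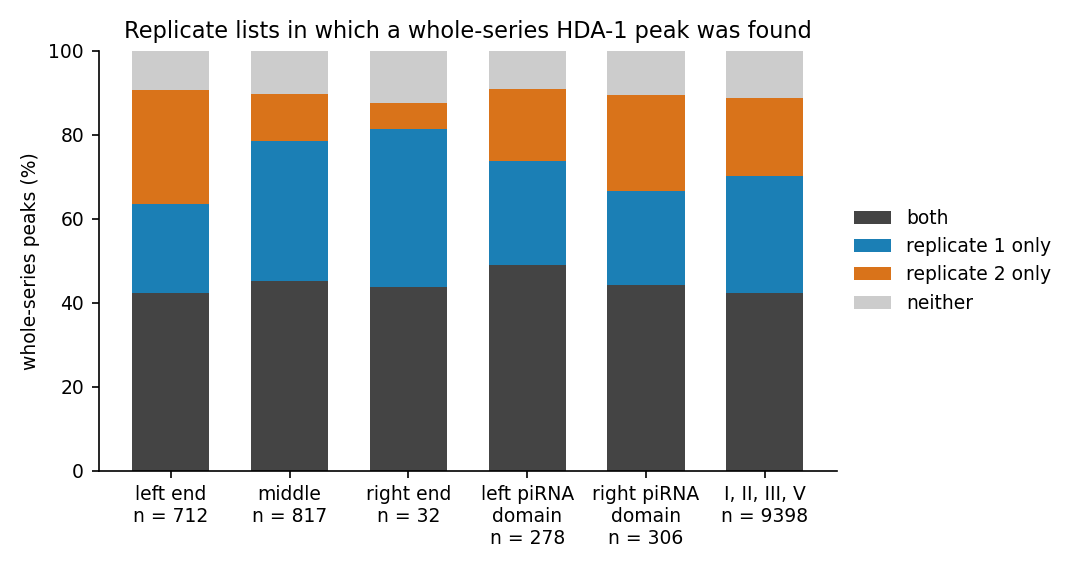
Share of whole-series HDA-1 peaks (vertical axis, %) found in both replicates, in 1 of them or in neither, by region. The share found in both is 42.3% in the left end and 45.2% in the middle stretch, whereas replicate 2 only makes up 27.0% of the left end and 11.1% of the middle stretch.

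Read from each replicate's own list, recurrence showed the same split. Of the replicate 2 peaks in the middle stretch, 77.5% (73.7 to 81.0%) overlapped a replicate 1 peak, against 58.0% (53.8 to 62.2%) in the left end and 65.2% in the whole list. Of the replicate 1 peaks, 50.3% (46.6 to 53.9%) in the middle stretch and 57.2% (52.9 to 61.4%) in the left end overlapped a replicate 2 peak, against 51.5% in the whole list. Unequal numbers alone move such shares, since the middle stretch held 748 peaks in replicate 1 and 528 in replicate 2. Outside the domains 187 replicate 1 peaks (14.2%) and 54 replicate 2 peaks (4.88%) were absent from the whole-series list, against 14.3 and 8.1% over the replicate lists.

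Support rose with the authors' peak score in every stretch. Since the whole-series list that holds this score is not independent of the replicates, the rise is a description and not separate evidence for the peaks. The score is deposited with each peak and what it measures is not stated, so it was compared only between peaks of the same list. Among the best-scoring 25% of the whole-series list, 173 of 183 left-end peaks, 208 of 231 middle-stretch peaks and 8 of 10 right-end peaks were found in both replicates. Over all chromosomes that share was 93.2%. Among the lowest-scoring 25% the counts were 12 of 170, 11 of 187 and 0 of 7, with 4.15% over all chromosomes. The single-replicate peaks of the strongest class were few: 22 of replicate 1 only and 1 of replicate 2 only in the middle stretch, 6 and 4 in the left end, and 212 and 31 over all chromosomes. In the next class down the left end had 39 and 54, the middle stretch 67 and 19, and all chromosomes 1030 and 628.

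Strong peaks made up about the same share of each larger stretch. The strongest 10% of the whole-series list made up 10.4% of the left end (74 peaks), 10.4% of the middle stretch (85 peaks) and 11.3% of the domains (66 peaks). In replicate 2 the strongest 10% made up 12.1% of the left end (9.55 to 15.1%) and 9.09% of the middle stretch (6.78 to 11.9%). In replicate 1 these shares were 9.38 and 11.0%.

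The best-supported strong sites were chosen as the top-scoring whole-series peaks overlapping both replicates. The first of the middle stretch was IV:9196140-9197502, a broad peak of 1363 bp with rank 1 in replicate 1 and rank 3 in replicate 2. Second came IV:12012400-12012923 (524 bp), which ranked 61 and 49, and by IV:13430189-13430538 (350 bp), which ranked 132 and 15. The peak IV:12390889-12391443 ranked 20 in replicate 1 but 477 in replicate 2. The peak IV:7401944-7402593 ranked 788 and 160, so the replicates did not order these sites alike.

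In the left end the first such site was IV:1067321-1068224, 904 bp wide, which ranked 38 in replicate 1 and 3 in replicate 2. The second was IV:3313329-3313704, 376 bp wide, which ranked 2 and 13. The peak IV:4184771-4185088, 318 bp wide, ranked 46 and 22. The peaks IV:654677-655442 and IV:2895753-2896551 ranked 31 and 14 in replicate 1 but 374 and 153 in replicate 2. The last 2 sites were thus strong in replicate 1 and further down in replicate 2.

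The right end had no site of that strength. Its best, IV:17249763-17250009 (247 bp), ranked 173 in the whole-series list, 226 in replicate 1 and 580 in replicate 2. No other right-end peak was in the top 10% of the whole-series list. In the replicate lists the top 10% held 2 right-end peaks of replicate 1 and 3 of replicate 2. Next came IV:17278181-17278827 and IV:17380358-17380630, with whole-series ranks of 1743 and 1887. They ranked 1969 and 2487 in replicate 1, and 2001 and 875 in replicate 2.

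Peaks outside the domains were narrow, and those found in both replicates had higher median widths, as they had over the whole series. The median width was 252 bp in the left end, 271 bp in the middle stretch and 309 bp in the right end. The narrowest peak was 146 bp. Medians by replicate were 248 and 228 bp in the left end, 263 and 238 bp in the middle stretch, and 284 and 231 bp in the right end, with replicate 1 wider in each. Whole-series peaks found in both had a median of 376 bp in the left end and 425 bp in the middle stretch. Those found in neither had medians of 167 and 164 bp. Over the whole series the median was 249 bp, with 386 bp for peaks found in both and 165 bp for those in neither. Peaks of 800 bp or more numbered 36 in the left end (5.06%), 32 in the middle stretch (3.92%) and 3 in the right end, against 4.08% of the whole-series list.

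At sites called in both replicates, the width differed more between the replicates in the middle stretch than in the left end. Matching peaks, each the largest overlap of the other, formed 304 pairs in the left end and 366 in the middle stretch. The replicate 1 peak was the wider one in 60.2% of the left-end pairs, with a median width ratio of 1.11, and in 75.4% of the middle-stretch pairs, with a median ratio of 1.31. The midpoints lay a median of 42.8 and 51.8 bp apart. Across these pairs, which are not independent replicates, the scores had a Spearman rho of 0.53 in the left end and 0.48 in the middle stretch. On the other autosomes 3976 pairs had a rho of 0.53 and a median width ratio of 1.24. These differences between stretches were not tested.

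The widest peaks were called differently by the 2 replicates. IV:4469711-4472240 in the left end, 2530 bp, overlapped 2 replicate 1 peaks and 3 replicate 2 peaks. IV:11592506-11595006 in the middle stretch, 2501 bp, overlapped 2 and 5. IV:1721016-1722968, 1953 bp, matched a replicate 2 peak of 1957 bp, while its largest overlap in replicate 1 was a peak of 228 bp. IV:8431217-8433461, 2245 bp, had a large counterpart in each replicate, of 1515 and 1840 bp. The other named wide peaks were IV:2714562-2716371 (1810 bp), IV:7734694-7736256 (1563 bp) and, in the right end, IV:17278899-17279956 (1058 bp). Outside the domains 40 whole-series peaks (2.56%) overlapped 2 or more replicate 1 peaks and 83 (5.32%) overlapped 2 or more replicate 2 peaks.

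In the whole-series list, gaps between neighbouring peaks had their lowest median in the left end. The median whole-series gap was 1972 bp in the left end, 3116 bp in the middle stretch and 2247 bp in the right end. By replicate the medians were 2485 and 2521 bp in the left end and 3363 and 5796 bp in the middle stretch. In the right end, with 25 and 18 gaps, they were 3446 and 1778 bp, so in replicate 2 the lowest median was there. The replicates thus had like gaps in the left end, and replicate 2 had far longer ones between the domains. Fewer peaks in the same span lengthen gaps by construction, so this restates the difference in density. Gaps under 1 kb made up 36.1% of the left-end gaps (32.6 to 39.8%) and 35.4% of the middle-stretch gaps (32.1 to 38.8%). In the right end 13 of 31 gaps were that short.

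**Figure D4:**
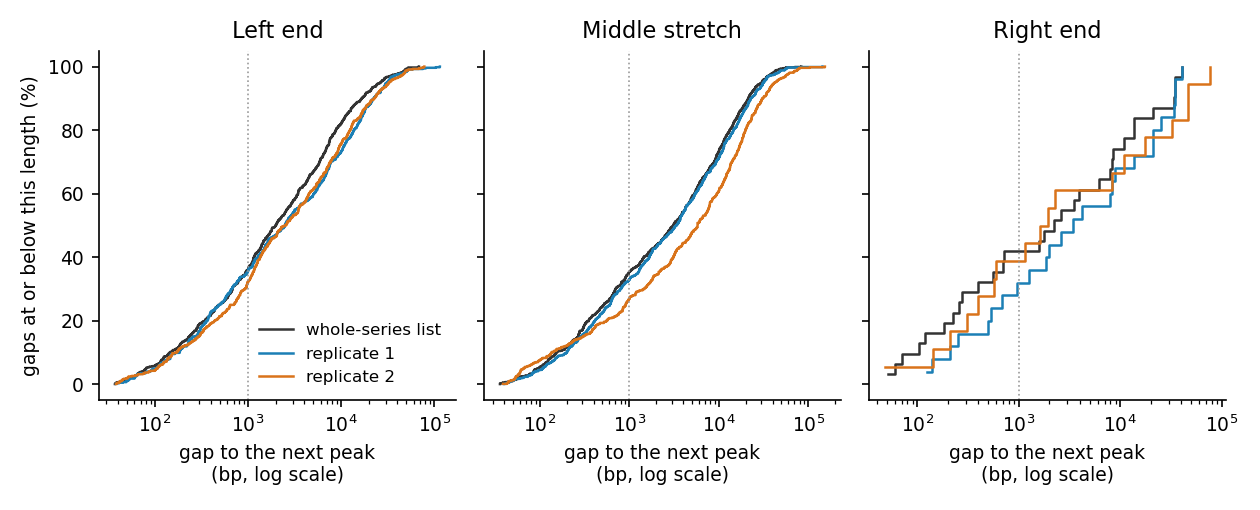
Cumulative share of gaps (vertical axis, %) by gap length (horizontal axis, bp, log scale) in each stretch and list; the dotted line marks 1 kb. The replicate curves lie together in the left end (medians 2485 and 2521 bp) and apart in the middle stretch (3363 and 5796 bp).

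Much of each stretch was empty of peaks. Gaps of 20 kb or more numbered 56 in the left end and 93 in the middle stretch, and took up 41.7 and 44.6% of their spans. In the right end 5 such gaps took up 56.1%. The longest gap of the set ran from 10574971 to 10658393 in the middle stretch, 83423 bp, and was followed there by 12928701 to 12999208 (70508 bp) and 12468171 to 12524534 (56364 bp). In the left end the longest ran from 3878901 to 3947492 (68592 bp), from 4099563 to 4166635 (67073 bp) and from 519693 to 572484 (52792 bp). The second of these lay inside the densest bin. The longest gap of the right end, 17335343 to 17375666, was 40324 bp. No replicate peak had its midpoint in these 7 gaps, except 1 of replicate 1 in the gap from 4099563.

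Neighbouring peaks less than 1 kb apart were joined into runs. In the whole-series list the 712 left-end peaks formed 455 sites, of which 326 were lone peaks, 129 were runs and 20 were runs of 5 or more. The 817 middle-stretch peaks formed 528 sites, with 378 lone peaks, 150 runs and 18 runs of 5 or more. The 32 right-end peaks formed 19 sites, with 11 lone peaks and 1 run of 5 or more. Joined in the same way, the 14199 peaks of all chromosomes formed 9176 sites, and the 9398 of the other autosomes formed 5987. The grouping in the left end and the middle stretch was thus near that of the whole list. Lone peaks and long runs were not counted on other chromosomes. Runs of 5 or more numbered 13 in replicate 1 and 9 in replicate 2 in the left end, and 16 and 3 in the middle stretch.

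The runs with most peaks were named by rule, 3 in each larger stretch and 1 in the right end. Between the domains IV:13025597-13033904 held 12 whole-series peaks in 8308 bp (7 in replicate 1, 6 in replicate 2), and only 3 of the 12 were found in both replicates. IV:11952478-11957806 held 10 (7 and 5), and IV:8228672-8235323 held 8 (6 and 4). In the left end IV:3517659-3524938 held 10 whole-series peaks (6 and 7), IV:4400775-4407503 held 10 (6 and 5) and IV:2218878-2223988 held 8 (7 and 3). Right-end runs of 2 to 4 held 15 peaks, of which 5 were found in both replicates. The only right-end run of 5 or more was found whole in both. There IV:17277086-17281974 held 6 whole-series peaks, all 6 found in both replicates (6 and 7 peaks), and peaks covered 80.9% of its 4889 bp.

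Replicate support of lone and grouped peaks was ordered differently in the left end and the middle stretch. In the left end 31.3% of lone peaks (26.3 to 36.6%) were found in both replicates, against 47.9% (41.7 to 54.1%) in runs of 2 to 4 and 59.1% (50.0 to 67.7%) in runs of 5 or more. The middle stretch had shares of 50.3% (45.1 to 55.4%), 41.5% (36.1 to 47.1%) and 38.8% (29.9 to 48.3%). Lone peaks of the left end were found in replicate 2 only in 34.4% of cases, against 9.52% in the middle stretch. The median score went the same way as these shares in each stretch, through lone peaks, runs of 2 to 4 and runs of 5 or more. It was 8.01, 10.5 and 12.1 in the left end and 11.0, 9.24 and 8.56 in the middle stretch. Median widths were 220, 253 and 321 bp in the left end, and 270, 275 and 262 bp, in no such order, in the middle stretch. The pattern was noticed after the values were seen. The difference between the stretches was not tested, nor was the part of score and width in it. Shares by run class were not computed for the domains or other chromosomes. Whether either order is unusual therefore cannot be told.

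**Figure D5:**
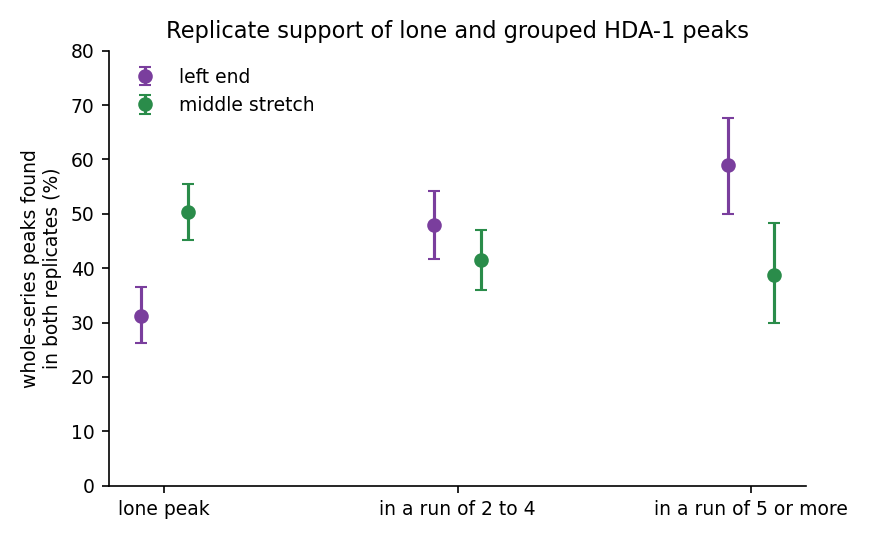
Share of whole-series HDA-1 peaks found in both replicates (vertical axis, %) for lone peaks and for peaks in runs of 2 to 4 or of 5 or more, with exact 95% binomial intervals. The share climbs from 31.3 to 59.1% in the left end and goes from 50.3 to 38.8% in the middle stretch.

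The peaks beside the domain edges were found in both replicates at 1 of the 4 edges. The last of the left end, IV:4490394-4490553, and the first of the left domain, IV:4506718-4506883, had scores of 4.93 and 7.34 and were found in replicate 2 only. The last of that domain, IV:6974679-6974843, was found in replicate 2 only, and the first of the middle stretch, IV:7012855-7013000, in neither replicate. At the second domain IV:13464443-13464707 and IV:13502760-13503322, on either side of its start, had scores of 17.1 and 18.6 and were found in both replicates. The last peak of that domain, IV:17186982-17187176, was found in replicate 2 only, and the first of the right end, IV:17206633-17206782, in neither. The outermost whole-series peaks of the chromosome were IV:1759-2013, found in replicate 2 only, and IV:17471990-17472308, found in replicate 1 only.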

How the data were processed

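The data were 3 HDA-1 ChIP-seq peak lists, of replicate 1, of replicate 2 and of the whole series. Per the labels' protocols, ground worms were crosslinked in EGS for 20 minutes and with formaldehyde added for 10 more. EGS also joins proteins to each other, so a peak can mark indirect contact. Per the submitters' processing notes BWA and ce10 were used, and per the file headers MACS peaks are on WS220. Not given in the sources used here are the MACS version, threshold and control and the making of the whole-series list, which is not independent of the replicates. The deposited score of each peak is the authors' own. It was compared within a list only, apart from rank agreement.

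Peaks were counted by midpoint. The span of IV was taken as the largest peak end, 17493793. Densities were compared by exact binomial tests and shares by Fisher's exact test, adjusted over 12 tests. Gaps were counted between peaks of the same stretch. Alternatives were single replicates, merging at 1 kb, better-scoring 50%, moved domain edges, other overlaps and equal lists. Named peaks followed a rule: the 5 best-scoring found in both replicates, the 3 widest, the 3 longest gaps and the 3 largest runs of the left end and the middle stretch (3, 1, 1 and 1 in the right end), and the peaks at the edges. The stretches, rule and tests were chosen with earlier results of these data known. The code for overlap, merging, runs and density was tested on cases with known answers. These were the replicate 1 list with its peaks moved, a random count and a small made-up list. The other code was not tested in this way. Intervals are at 95% and cover counting error only. The tools were SciPy 1.17.1, pandas 2.3.3 and NumPy 2.4.6 under Python 3.11.15, with matplotlib 3.10.9 for plots.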

Additional observations from a re-analysis of the deposited data

How the results depend on the processing

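Alternatives gave 63 values, of which 43 stayed within the counting interval or on the same side of the test's threshold with the same sign. The excess of outside over domain density passed the test under each alternative tried. Its log2 ratio ran from 0.39 (domain edges moved outward by 250 kb) to 0.63 (replicate 1 alone), and was 0.45 with replicate 2 alone. Each alternative pooled the stretches and pooled the domains, and no stretch was tested against a single domain. In replicate 2 the middle stretch (81.2 peaks per Mb) lay below the left domain (84.0). The part of position along the chromosome was not tested. For left end against middle stretch the log2 density ratio ranged from 0.071 (replicate 1 alone, exact binomial p = 0.381) to 0.62 (replicate 2 alone), so that call rests on replicate 2. The difference in single-replicate peaks passed under all 5 alternatives, but it in part restates that density difference between the replicates.

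The share of peaks outside the domains found in both replicates was 31.6% with midpoints within 100 bp and 52.4% with peaks closer than 1 kb merged in all 3 lists. It was 21.1% when each replicate was held to its 5000 best-scoring peaks. The whole-series list was not cut there, so that fall is built in. Left end minus middle stretch in that share reversed to 1.64 points with midpoints within 100 bp (Fisher's exact p = 0.509). It grew to -12.4 points after merging (Fisher's exact p = 0.00012), an alternative chosen after seeing the data, as was leaving out the densest bin. The cause was not tested.

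The better-scoring 50% of the list gave median widths of 330 bp in the left end, 380.5 bp in the middle stretch and 492 bp in the right end. It gave median gaps of 3891 and 7474 bp in the first 2 stretches, and shares of gaps under 1 kb of 28.3 and 16.6%; fewer peaks lengthen gaps by construction. With each replicate alone, the left-end median width ranged from 228 to 248 bp, its median gap from 2485 to 2521 bp and its share of gaps under 1 kb from 32.4 to 35.9%. In the middle stretch these ranged from 238 to 263 bp, 3363 to 5796 bp and 26.9 to 32.9%. No paired analysis was possible because no input list, which could be paired by number with a ChIP list, was analysed here. Lists without read counts leave the depth of each replicate unknown, and its part in the replicate differences was not tested.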
